A study of Mus musculus with 6 samples.

Results

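The genes described here are 39 genes of the Wnt pathway in mouse femur, chosen by gene symbol: 9 Wnt ligands, 8 receptors, 9 antagonists, 2 R-spondins, 4 signal transducers and 7 feedback targets. All 39 were found among the 34361 genes of the table, and all 39 passed the filter on low counts that left 20388 genes for testing. Each group has 3 femur libraries, which the design text ties to 3 mice per group: the knockout-labelled group was injected with tamoxifen to induce the knockout, and the control group with corn oil. The sample labels number the libraries and name no animal. According to the design text the knocked-out gene is Fshr, which encodes the receptor of follicle-stimulating hormone (FSH), whereas each sample's treatment label gives FGF21, a hormone gene. The libraries are therefore called knockout-labelled. Only the knockout-labelled mice received tamoxifen, which acts on oestrogen receptors in bone, so the drug and the knockout cannot be told apart. The series title concerns inhibition of FSH in osteocytes of ovariectomized mice. Strain, age, sex, the promoter that drives the recombinase and whether these mice had been operated on are given in none of the sources used here.

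Wnt proteins are secreted ligands that bind a Frizzled receptor together with an Lrp5 or Lrp6 co-receptor. In the canonical branch this stops the destruction of beta-catenin, which then acts with TCF and LEF proteins on target genes. Several targets feed back on the pathway, secreted antagonists hold ligands or co-receptors back, and R-spondins raise the number of receptors at the surface. In bone the canonical branch is known to promote the formation of osteoblasts, the bone-forming cells, and osteocytes buried in bone are a known source of the inhibitors Sost and Dkk1.

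Promoter sequence is shown for 3 members that were called higher and whose promoter held letters bound by TCF and LEF proteins, since these are the factors at the end of the pathway. The letters searched, on both strands of the 250 bases before each start, were CTTTG followed by A or T and then again by A or T. RefSeq promoters of assembly GRCm38.p6 matched 22 of the 39 members, with 32 promoters. Of these, 6 promoters (18.8%) held a match, against 4874 of 32851 promoters of all genes (14.8%). The matches lay in Wnt5b, Wnt11, Fzd7, Dkk1, Lef1 and Tcf7l2, which did not move together: Wnt11, Fzd7 and Dkk1 were called higher, Wnt5b and Tcf7l2 lower, and Lef1 was not called. A match is a description of letters and not of binding. Capitals mark the match, and each sequence runs 5′ to 3′ on the strand of its gene.
Wnt11 (GRCm38.p6, chr7:98834862-98835111, plus strand): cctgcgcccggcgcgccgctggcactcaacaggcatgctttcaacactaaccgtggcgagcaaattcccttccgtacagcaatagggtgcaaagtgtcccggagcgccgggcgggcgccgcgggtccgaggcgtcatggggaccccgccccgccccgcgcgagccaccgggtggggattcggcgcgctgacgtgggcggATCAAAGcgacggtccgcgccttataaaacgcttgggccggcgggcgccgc
Fzd7 (GRCm38.p6, chr1:59481897-59482146, plus strand): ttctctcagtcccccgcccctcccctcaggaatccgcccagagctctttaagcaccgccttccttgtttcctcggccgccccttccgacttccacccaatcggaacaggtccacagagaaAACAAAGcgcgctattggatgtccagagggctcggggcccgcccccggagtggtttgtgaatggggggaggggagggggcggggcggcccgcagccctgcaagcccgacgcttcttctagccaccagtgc
Dkk1 (GRCm38.p6, chr19:30549497-30549746, minus strand): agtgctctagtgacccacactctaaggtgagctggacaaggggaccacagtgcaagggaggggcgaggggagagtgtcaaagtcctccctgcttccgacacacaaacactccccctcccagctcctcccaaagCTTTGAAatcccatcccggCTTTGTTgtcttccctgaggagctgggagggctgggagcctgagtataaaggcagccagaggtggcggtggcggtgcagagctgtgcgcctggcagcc
The single match of Fzd7 began 130 bases before the start, and that of Wnt11 began 51 bases before it. Dkk1 held 2 matches, the first of which began 117 bases before the start and the last 98 bases before it.

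The libraries held 65.8 to 73.5 M counts, or about 16.4 to 18.4 M read pairs. Fshr and Fgf21 were listed at 0 counts in all 6 libraries, so neither gene could serve as a check of the labels. A count of 0 allows up to 3 read pairs, or 12 counts, per library, which covers counting error only. Marker genes of several cell types differed between the groups. Over all tested genes, 28.7% were called higher and 28.8% lower. Skeletal muscle markers took 9.84% to 9.89% of counts in knockout-labelled femurs, against 2.04% to 2.08% in control femurs, and 14 of 14 were called higher. Osteoblast markers took 2.03% to 2.05% of counts in knockout-labelled femurs, against 10.4% to 10.5% in control femurs, and 11 of 11 were called lower. Of 10 osteocyte markers, which include Sost and Dkk1, 3 were called higher and 6 lower, with 0.256% to 0.259% of counts in knockout-labelled femurs, against 0.323% to 0.324% in control femurs. Osteoclast markers were called lower in 9 of 9, adipocyte markers higher in 8 of 8, and no marker of any list was at 0 in all libraries. Chondrocyte markers took 0.0496% to 0.0510% of counts in knockout-labelled femurs, against 0.293% to 0.300% in control femurs. Of 8 chondrocyte markers, 4 were called higher and 2 lower. Erythroid markers were called higher in 7 of 7. Neutrophil markers were called lower in 7 of 7, macrophage markers in 5 of 5 and mast cell markers in 5 of 5. Tendon, marrow stroma, endothelial and B cell markers were called in both directions. The part of these differences in the results on Wnt genes was not tested. Within a group the libraries were close to each other, with a median coefficient of variation of 3.07% in knockout-labelled and 2.90% in control femurs over genes at 10 FPKM or more. The p-values measure only the spread between these libraries, which may be technical.

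In the knockout-labelled femurs most Wnt genes were lower than in the control femurs. Of the 39 genes, 23 were called lower, 8 were called higher and 8 were not called (edgeR's quasi-likelihood test at a threshold of 0.05 on p-values that were adjusted by Benjamini and Hochberg's method over all tested genes; 57.5% of all tested genes were called in either direction). Those called lower made up 59.0% of the Wnt genes, against 28.8% of all tested genes, and those called higher made up 20.5%, against 28.7% of all tested genes. The median log2 fold change, knockout-labelled over control, was -0.44 over the 39 Wnt genes and -0.02 over all tested genes. In a piece of tissue, fewer cells of a type and less RNA per cell cannot be told apart.

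The scale matters for several genes called higher and for several that were not called. FPKM divide the fragments of a gene by its length in kilobases and by the sequencing depth. The log2 fold changes below rest instead on counts scaled by TMM, a method that centres the bulk of genes at no change. With library totals in its place the median log2 fold change of all genes shifted by -0.42. A Wnt gene with equal FPKM in both groups therefore has a TMM log2 fold change of about 0.4. On FPKM, 26 of the 39 Wnt genes had knockout-labelled libraries all below the control libraries, and 5 had them all above, whereas these shares were 54.6% and 17.9% among all tested genes. The groups overlapped on FPKM for Wnt1, Wnt10a, Fzd4, Dkk1, Kremen1, Rspo3, Axin2 and Nkd1.

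**Figure D1:**
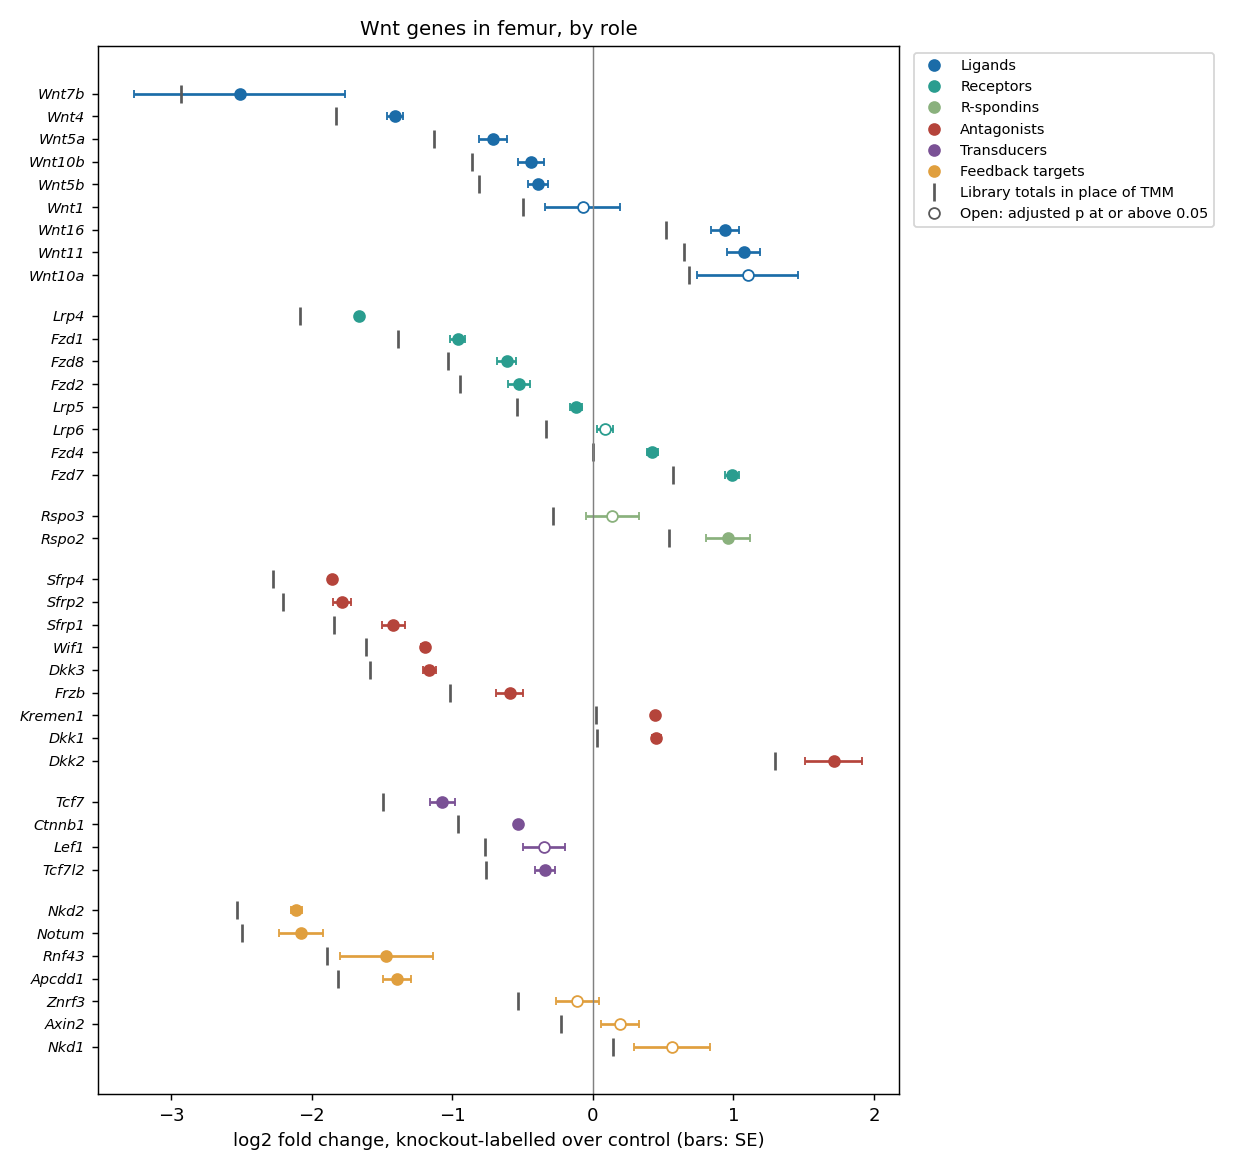
Log2 fold change of each of the 39 Wnt genes, knockout-labelled over control, by role. Points are edgeR estimates after TMM scaling, bars are SE (n = 3 each), open points missed the threshold and grey ticks give the value with library totals. The antagonists span -1.85 for Sfrp4 to 1.71 for Dkk2, and the ticks of Fzd4, Dkk1 and Kremen1 lie near 0.

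Among the 9 ligands, 5 (55.6%) were called lower and 2 (22.2%) higher, against 28.8% and 28.7% of all tested genes. The median log2 fold change of the ligands was -0.39. Summed over the ligands, the level was 22.2 to 23.9 FPKM in knockout-labelled femurs, against 42.4 to 45.0 FPKM in control femurs. Wnt4 (chr4:137004800-137027037, GRCm39), a ligand of mostly non-canonical action in bone, had 2.84, 3.06 and 3.27 FPKM in knockout-labelled femurs, against 10.7, 11.1 and 10.9 FPKM in control femurs. It was 2.65-fold lower (log2 fold change -1.41, SE 0.059, edgeR adjusted p = 1.55e-09), and the groups lay far apart. Wnt7b (chr15:85419638-85466022), an osteogenic ligand, had only 30, 7 and 51 counts in knockout-labelled femurs, against 193, 266 and 217 counts in control femurs. Its log2 fold change was -2.51 with a wide SE of 0.75 (edgeR adjusted p = 0.000397). The knockout-labelled counts amount to few read pairs, so the direction is clearer than the size.

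The most abundant ligand was Wnt5b, a non-canonical ligand, with 9.78, 8.95 and 9.94 FPKM in knockout-labelled femurs, against 18.1, 15.8 and 16.6 FPKM in control femurs. On TMM-scaled counts it was 1.31-fold lower (log2 fold change -0.39, SE 0.070, edgeR adjusted p = 0.000173). Wnt10b, a canonical ligand that favours osteoblasts over adipocytes, had 5.56, 4.76 and 4.63 FPKM in knockout-labelled femurs, against 9.51, 9.11 and 8.61 FPKM in control femurs. Its log2 fold change was -0.44 (SE 0.093, edgeR adjusted p = 0.000435). Wnt5a, the best known non-canonical ligand, had 1.19, 1.13 and 1.02 FPKM in knockout-labelled femurs, against 2.54, 2.20 and 2.60 FPKM in control femurs. It fell by 0.71 on the log2 scale (SE 0.098, edgeR adjusted p = 3.66e-05). All 3 ligands had groups that did not overlap.

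The ligands called higher were Wnt16 and Wnt11. Wnt16 (chr6:22288226-22298521), an osteoblast ligand known for its effect on cortical bone, had 2.37, 2.44 and 2.81 FPKM in knockout-labelled femurs, against 1.63, 1.89 and 1.80 FPKM in control femurs. Its log2 fold change was 0.94 (SE 0.099, edgeR adjusted p = 8.99e-06), and 0.14 on TPM, where it missed the threshold. Wnt11, a ligand mainly of the non-canonical branch, had 0.939, 0.923 and 0.757 FPKM in knockout-labelled femurs, against 0.534, 0.537 and 0.602 FPKM in control femurs, with a log2 fold change of 1.07 (SE 0.12, edgeR adjusted p = 0.000138). For both genes every knockout-labelled library stood above every control library. Wnt1, whose mutations cause bone fragility in humans and mice, had 1.00, 0.782 and 0.705 FPKM in knockout-labelled femurs, against 1.47, 0.857 and 1.20 FPKM in control femurs, and was not called (log2 fold change -0.07, SE 0.27, edgeR adjusted p = 0.812). Wnt10a, a canonical ligand of teeth and skin, stayed near the floor with 26, 17 and 20 counts in knockout-labelled femurs, against 12, 20 and 8 counts in control femurs, and was not called (edgeR adjusted p = 0.141). Wnt10b and Wnt1 are neighbours on chromosome 15, 11706 bases apart with no gene between them and on opposite strands; their log2 fold changes were -0.44 and -0.07.

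**Figure D2:**
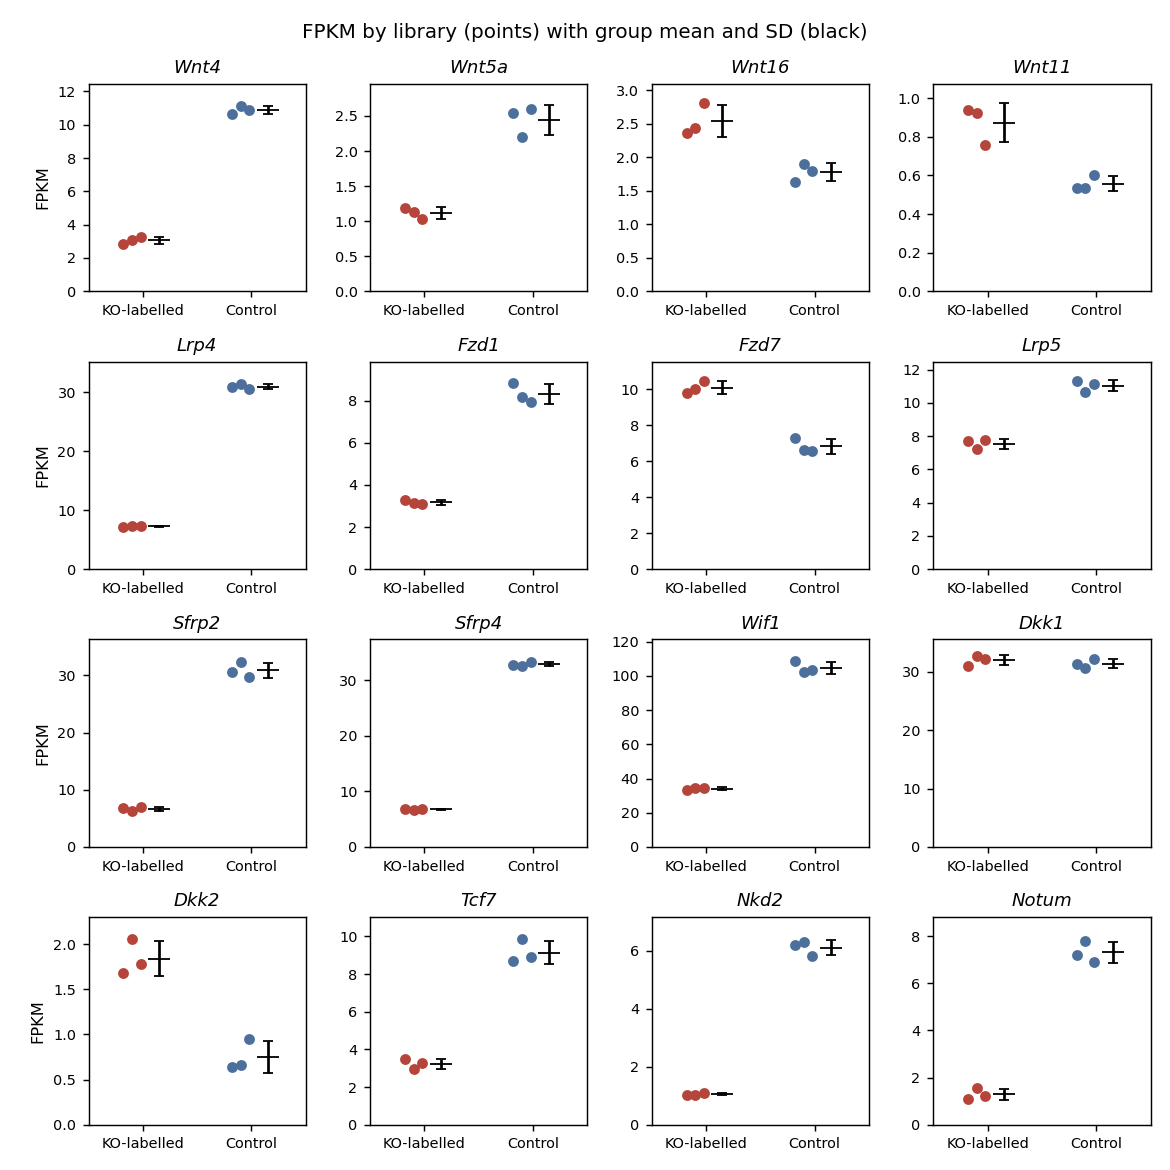
FPKM of Wnt genes in each of the 3 knockout-labelled and 3 control libraries, with 1 panel per gene for 16 of the 39 genes, points for libraries and black bars for mean and SD. Lrp4, Sfrp4 and Wif1 are lower in every knockout-labelled library, Fzd7 is higher in every one, and the points of Dkk1 overlap between the groups.

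R-spondins raise the cell's response to Wnt by keeping Znrf3 and Rnf43 from removing receptors. Rspo2 had 0.791, 0.698 and 0.829 FPKM in knockout-labelled femurs, against 0.456, 0.509 and 0.630 FPKM in control femurs, and was called higher (log2 fold change 0.96, SE 0.16, edgeR adjusted p = 0.000407). Rspo3 had 2.69, 1.77 and 1.95 FPKM in knockout-labelled femurs, against 2.56, 2.64 and 2.63 FPKM in control femurs, and was not called (edgeR adjusted p = 0.466). The spread of Rspo3 came mostly from the first knockout-labelled library, which stood above the other two and above the controls.

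Of the 8 receptors, 5 were called lower and 2 higher, and Lrp6 was not called. Their summed level was 39.96 to 41.28 FPKM in knockout-labelled femurs, against 73.1 to 75.5 FPKM in control femurs. Lrp4 (chr2:91287856-91344124), a receptor of the Lrp family that anchors Sost in bone, had 7.18, 7.27 and 7.38 FPKM in knockout-labelled femurs, against 30.9, 31.4 and 30.6 FPKM in control femurs. It was 3.17-fold lower (log2 fold change -1.66, SE 0.014, edgeR adjusted p = 5.84e-14). It was the most abundant receptor of the list in control femurs, with 41.8% of the summed receptor FPKM there, against 18.0% in knockout-labelled femurs.

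Frizzled receptors went in both directions. Fzd7 (chr1:59521583-59526114) had 9.77, 10.01 and 10.5 FPKM in knockout-labelled femurs, against 7.28, 6.63 and 6.54 FPKM in control femurs, and was 1.99-fold higher (log2 fold change 0.99, SE 0.052, edgeR adjusted p = 8.20e-09). Fzd4, the receptor also bound by Norrin, had 4.79, 4.83 and 4.90 FPKM in knockout-labelled femurs, against 5.13, 4.76 and 4.64 FPKM in control femurs. Its log2 fold change was 0.42 (SE 0.041, edgeR adjusted p = 2.20e-05) after TMM scaling, 0.0032 with library totals and -0.33 on TPM. On TPM Fzd4 was called lower, so its direction depends on the scale. Fzd1, a canonical receptor, had 3.30, 3.13 and 3.10 FPKM in knockout-labelled femurs, against 8.84, 8.16 and 7.93 FPKM in control femurs, with a log2 fold change of -0.96 (SE 0.053, edgeR adjusted p = 8.04e-08). Fzd8 averaged 2.05 ± 0.16 FPKM in knockout-labelled femurs and 4.20 ± 0.04 FPKM in control femurs, and Fzd2 averaged 1.47 ± 0.09 FPKM in knockout-labelled femurs and 2.83 ± 0.19 FPKM in control femurs (SD, n = 3 each). Both were called lower, with log2 fold changes of -0.61 (edgeR adjusted p = 1.67e-05) for Fzd8 and -0.52 (edgeR adjusted p = 0.00146) for Fzd2.

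The canonical co-receptors changed little on TMM-scaled counts. Lrp5, whose variants set bone mass in humans, had 7.69, 7.20 and 7.75 FPKM in knockout-labelled femurs, against 11.3, 10.7 and 11.1 FPKM in control femurs. Its log2 fold change after TMM scaling was -0.12 (SE 0.041, edgeR adjusted p = 0.0148). With library totals the value was -0.54 and on TPM -0.86, and Lrp5 was called lower in both. After TMM scaling the call was lost without knockout-labelled replicate 2 (log2 fold change -0.09), without control replicate 1 (-0.11) or without control replicate 3 (-0.11). Lrp6, its close relative, had 3.89, 4.20 and 4.15 FPKM in knockout-labelled femurs, against 4.99, 4.99 and 5.47 FPKM in control femurs, and was not called (log2 fold change 0.09, SE 0.057, edgeR adjusted p = 0.128), with -0.33 under library totals. For Lrp6, a gene whose FPKM did not overlap between groups, the direction therefore depended on the scale.

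The antagonists went in both directions. Of 9, 6 (66.7%) were called lower and 3 (33.3%) higher, against 28.8% and 28.7% of all tested genes. The summed level of the antagonists was 102 to 105 FPKM in knockout-labelled femurs, against 242 to 252 FPKM in control femurs. Secreted Frizzled-related proteins and Wif1 bind Wnt ligands themselves, and all 5 of these were called lower. Sfrp4 (chr13:19807274-19817164), whose loss causes thin cortical bone in humans and mice, had 6.83, 6.65 and 6.78 FPKM in knockout-labelled femurs, against 32.7, 32.6 and 33.3 FPKM in control femurs, a 3.62-fold decrease (log2 fold change -1.85, SE 0.018, edgeR adjusted p = 2.47e-13). Sfrp2 had 6.78, 6.23 and 7.004 FPKM in knockout-labelled femurs, against 30.6, 32.3 and 29.8 FPKM in control femurs (log2 fold change -1.78, SE 0.062, edgeR adjusted p = 7.96e-11). Wif1 (chr10:120869865-120936555), the most abundant antagonist of the list, had 33.4, 34.7 and 34.2 FPKM in knockout-labelled femurs, against 109, 102 and 104 FPKM in control femurs (log2 fold change -1.19, SE 0.028, edgeR adjusted p = 5.56e-12). For these genes the groups did not overlap and the libraries of a group lay close together.

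Sfrp1, an inhibitor of bone formation in mice, averaged 1.33 ± 0.08 FPKM in knockout-labelled femurs and 4.79 ± 0.37 FPKM in control femurs (log2 fold change -1.42, edgeR adjusted p = 5.47e-08). Frzb, named for its Frizzled-like domain, averaged 1.72 ± 0.10 FPKM in knockout-labelled femurs and 3.49 ± 0.36 FPKM in control femurs (log2 fold change -0.59, edgeR adjusted p = 0.000688). Dkk3, a Dickkopf relative without a clear action on Lrp5 or Lrp6, averaged 9.23 ± 0.20 FPKM in knockout-labelled femurs and 27.7 ± 1.5 FPKM in control femurs (log2 fold change -1.16, edgeR adjusted p = 3.65e-10; SD, n = 3 each for these genes).

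The antagonists that act at the co-receptor did not share this direction. Dkk1 and Dkk2 bind Lrp5 and Lrp6, and Kremen1 is a membrane receptor that helps Dkk proteins remove them. Dkk2 (chr3:131791053-131886065) had 1.68, 2.05 and 1.78 FPKM in knockout-labelled femurs, against 0.637, 0.663 and 0.955 FPKM in control femurs, and was 3.28-fold higher (log2 fold change 1.71, SE 0.20, edgeR adjusted p = 3.83e-06). Dkk1 (chr19:30523263-30527065) had 31.0, 32.6 and 32.1 FPKM in knockout-labelled femurs, against 31.3, 30.6 and 32.2 FPKM in control femurs. Its log2 fold change was 0.45 after TMM scaling (SE 0.030, edgeR adjusted p = 2.57e-07), 0.030 with library totals and -0.32 on TPM, where Dkk1 was called lower. Kremen1 had 10.2, 9.78 and 10.2 FPKM in knockout-labelled femurs, against 9.87, 10.03 and 9.92 FPKM in control femurs. The log2 fold change of Kremen1 was 0.44 after TMM scaling (SE 0.022, edgeR adjusted p = 1.71e-07), 0.019 with library totals and -0.32 on TPM, where it was also called lower. Dkk1 and Kremen1 were thus level on FPKM while the other abundant antagonists were not. Kremen1 and Znrf3 are neighbours on chromosome 11, 14765 bases apart with no gene between them.

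Shares within a role do not depend on library scaling. Dkk1 held 30.8% ± 0.5 of the summed antagonist FPKM in knockout-labelled femurs and 12.7% ± 0.4 in control femurs, and Wif1 held 32.9% ± 0.3 in knockout-labelled femurs and 42.5% ± 0.5 in control femurs (SD, n = 3 each). Among receptors, Fzd7 held 24.9% ± 0.6 in knockout-labelled femurs and 9.19% ± 0.39 in control femurs. Among ligands, Wnt4 held 13.2% ± 1.2 in knockout-labelled femurs and 25.1% ± 1.3 in control femurs, whereas Wnt5b held 41.3% ± 1.1 in knockout-labelled femurs and 38.7% ± 1.4 in control femurs. The make-up of the receptors and antagonists thus differed between the groups as well as their sum. Ratios of FPKM within a library need no scaling either. Those given here were chosen after their values were seen and are a description. An exact permutation test over libraries gave p = 0.1 for each. This is the smallest value that 3 against 3 libraries allow, so the test cannot decide. Dkk1 over Wif1 was 0.929, 0.940 and 0.939 in knockout-labelled femurs, against 0.288, 0.300 and 0.311 in control femurs. Fzd7 over Fzd1 was 2.97, 3.20 and 3.38 in knockout-labelled femurs, against 0.823, 0.813 and 0.824 in control femurs. The ratio of Wnt16 to Wnt4 averaged 0.830 ± 0.030 in knockout-labelled femurs and 0.163 ± 0.009 in control femurs.

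**Figure D3:**
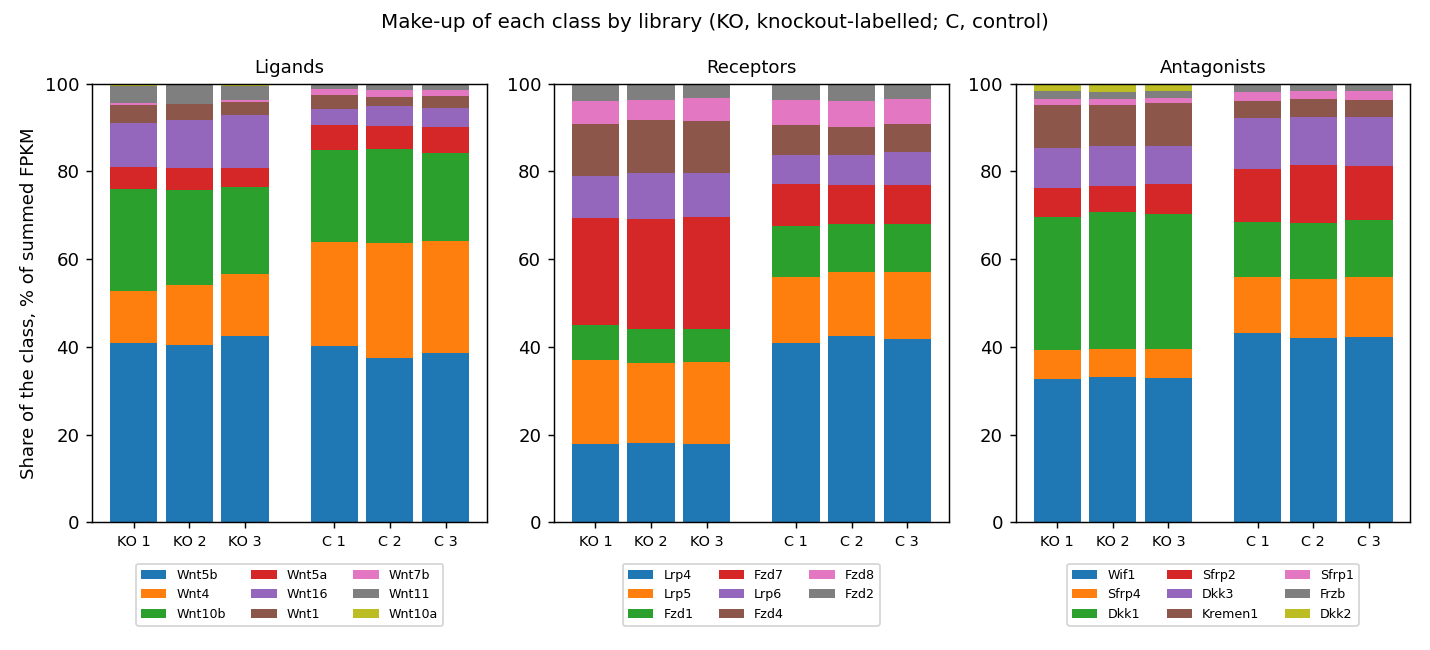
Stacked bars give the share (%) of each gene in the summed FPKM of the ligands, receptors and antagonists, 1 bar per library, knockout-labelled (KO) left of control (C). On average Dkk1 takes 30.8% of the antagonists in knockout-labelled femurs and 12.7% in control femurs, and Lrp4 takes 18.0% of the receptors in knockout-labelled femurs and 41.8% in control femurs.

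Of the 4 transducers, 3 (75.0%) were called lower, against 28.8% of all tested genes. Ctnnb1 (chr9:120758282-120789573), which encodes beta-catenin, had 80.6, 80.5 and 82.5 FPKM in knockout-labelled femurs, against 160, 160 and 154 FPKM in control femurs (log2 fold change -0.54, SE 0.018, edgeR adjusted p = 2.33e-10). Beta-catenin also serves in cell junctions, and its activity is set mainly at the protein level, which these data do not measure. Tcf7, a TCF transcription factor, had 3.48, 2.96 and 3.27 FPKM in knockout-labelled femurs, against 8.67, 9.85 and 8.89 FPKM in control femurs (log2 fold change -1.07, SE 0.091, edgeR adjusted p = 3.17e-07). Tcf7l2, its relative, averaged 1.53 ± 0.12 FPKM in knockout-labelled femurs and 2.62 ± 0.11 FPKM in control femurs (SD, n = 3 each; log2 fold change -0.34, edgeR adjusted p = 0.00203). Lef1, the third factor of this kind, had 0.417, 0.313 and 0.311 FPKM in knockout-labelled femurs, against 0.592, 0.631 and 0.556 FPKM in control femurs, and missed the threshold (log2 fold change -0.35, SE 0.15, edgeR adjusted p = 0.086). It was called lower with library totals (-0.77), with DESeq2 (-0.36) and without knockout-labelled replicate 1 (-0.51), and its adjusted p ranged from 0.00109 to 0.227 over the edgeR and DESeq2 alternatives. T cell markers, a known site of Tcf7 and Lef1, took 0.0013% to 0.0014% of counts in knockout-labelled femurs, against 0.0038% to 0.0040% in control femurs, with 3 of 6 called lower and none called higher, and none of them was at 0 in all libraries; their part in these results was not tested.

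The 7 feedback targets split into 4 (57.1%) called lower, against 28.8% of all tested genes, and 3 not called. The summed level of the feedback targets was 5.01 to 5.50 FPKM in knockout-labelled femurs, against 17.8 to 19.3 FPKM in control femurs. Notum (chr11:120544614-120552001), a secreted enzyme that removes the lipid that Wnt proteins need, had 1.09, 1.56 and 1.22 FPKM in knockout-labelled femurs, against 7.22, 7.81 and 6.90 FPKM in control femurs (log2 fold change -2.07, SE 0.16, edgeR adjusted p = 4.27e-08). Nkd2 (chr13:73966653-73995750), which binds Dishevelled proteins and dampens the pathway, had 1.03, 1.04 and 1.09 FPKM in knockout-labelled femurs, against 6.20, 6.31 and 5.84 FPKM in control femurs (log2 fold change -2.11, SE 0.040, edgeR adjusted p = 1.70e-10). In both genes the groups were far apart. Apcdd1, a membrane inhibitor of Wnt, averaged 0.474 ± 0.051 FPKM in knockout-labelled femurs and 1.67 ± 0.07 FPKM in control femurs (log2 fold change -1.39, edgeR adjusted p = 8.66e-08). Rnf43, a ubiquitin ligase that removes Frizzled receptors, averaged 0.216 ± 0.081 FPKM in knockout-labelled femurs and 0.809 ± 0.083 FPKM in control femurs (log2 fold change -1.47, edgeR adjusted p = 0.000229; SD, n = 3 each for both genes).

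The other 3 feedback targets were not called. Axin2, a scaffold of the destruction complex and the most used readout of canonical signalling, had 1.07, 0.882 and 1.02 FPKM in knockout-labelled femurs, against 1.16, 1.32 and 1.02 FPKM in control femurs. It was not called in the main test (log2 fold change 0.19, SE 0.14, edgeR adjusted p = 0.259). The log2 fold change was -0.23 with library totals and -0.43 on TPM, where Axin2 was called lower, so no direction can be given. Nkd1, the relative of Nkd2, had 0.574, 0.714 and 0.399 FPKM in knockout-labelled femurs, against 0.598, 0.479 and 0.449 FPKM in control femurs (log2 fold change 0.56, SE 0.27, edgeR adjusted p = 0.0551). It was called higher with DESeq2 (0.55), with a minimum of 40 counts in 3 libraries (0.57), with counts divided by 4 (0.57) and without knockout-labelled replicate 3 (0.76), and its adjusted p ranged from 0.0103 to 0.604 over the edgeR and DESeq2 alternatives, so its call depends on these choices. Znrf3, the relative of Rnf43, averaged 0.664 ± 0.097 FPKM in knockout-labelled femurs and 0.963 ± 0.090 FPKM in control femurs (SD, n = 3 each; log2 fold change -0.11, edgeR adjusted p = 0.54), and was called lower with library totals only (-0.53). Within the summed FPKM of the feedback targets, Axin2 held 19.0% ± 2.5 in knockout-labelled femurs and 6.27% ± 0.55 in control femurs, and Nkd2 held 20.1% ± 1.5 in knockout-labelled femurs and 33.0% ± 0.4 in control femurs (SD, n = 3 each).

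**Figure D4:**
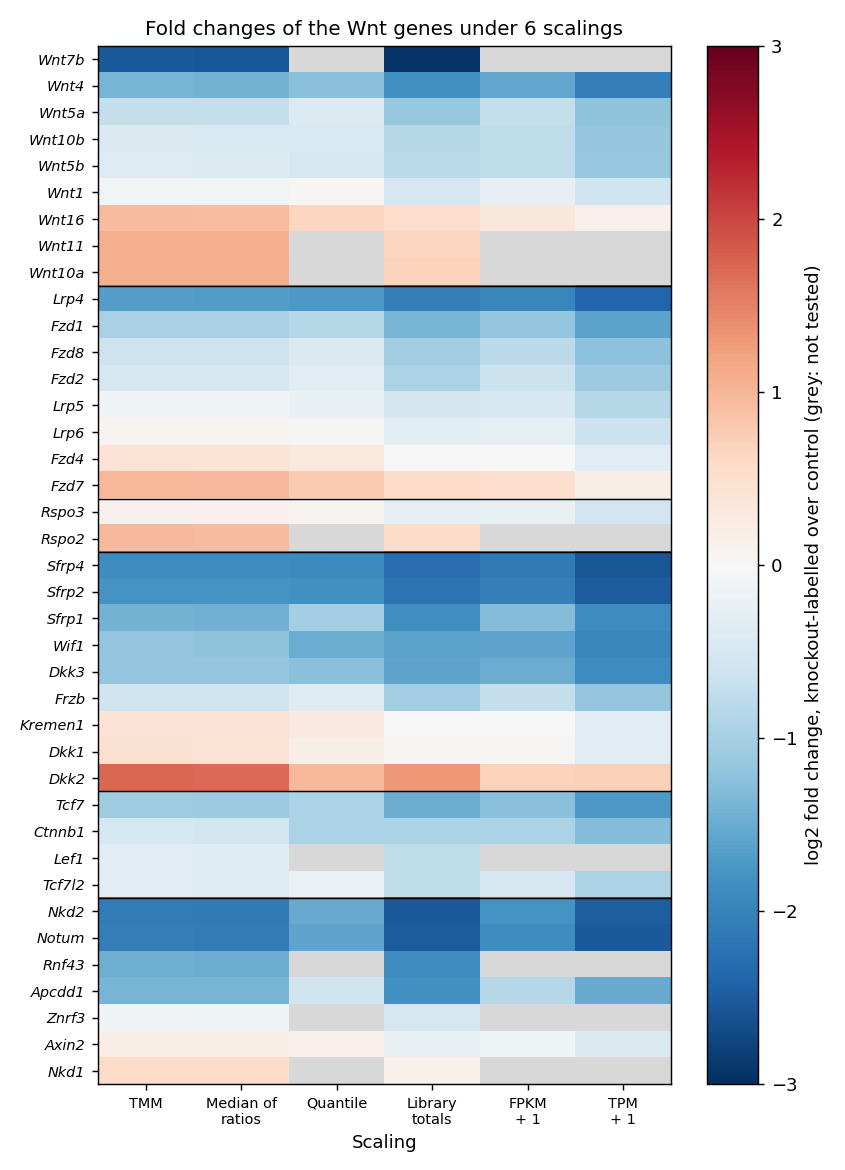
Log2 fold change of each Wnt gene, knockout-labelled over control, under each scaling, with the colour scale ending at 3 in both directions and grey cells where a gene was not tested. Wnt4, Lrp4, Sfrp4, Wif1 and Notum keep their sign under every scaling shown, whereas Fzd4, Dkk1 and Kremen1 are above 0 after TMM scaling and below 0 on TPM.

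Direction held in most members. Of the 31 called Wnt genes, 26 kept their direction and their side of the threshold under every alternative in which they were tested. These were 22 of the 23 called lower and 4 of the 8 called higher. The others were Wnt16, Fzd4, Lrp5, Dkk1 and Kremen1. Wnt11 and Rspo2, which were called higher, lie under 1 FPKM and were not tested on FPKM or TPM. Fzd7 and Dkk2 were called higher under all of the scalings.

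Transcript values show which forms carried the gene values. The members have 137 transcripts in the table, of which 78 were tested and 21 were called lower and 6 higher. These shares are 26.9% lower and 7.69% higher, against 7.93% and 10.2% of all tested transcripts. The main coding transcript of Lrp4 averaged 9.57 ± 0.13 FPKM in knockout-labelled femurs and 40.9 ± 0.6 FPKM in control femurs, and that of Wif1 averaged 35.9 ± 1.0 FPKM in knockout-labelled femurs and 109 ± 2 FPKM in control femurs (SD, n = 3 each). Sfrp4 has a pair of called transcripts: the 6-exon ENSMUST00000002883 averaged 12.3 ± 1.4 FPKM in knockout-labelled femurs and 42.2 ± 15.9 FPKM in control femurs (edgeR adjusted p = 0.0258), and the 5-exon ENSMUST00000222464 averaged 1.59 ± 0.53 FPKM in knockout-labelled femurs and 15.1 ± 6.8 FPKM in control femurs (edgeR adjusted p = 0.0133). The control libraries disagreed on how Sfrp4 divides between these forms, with 88.9%, 59.8% and 62.3% in the 6-exon form, although the gene value was steady. For Tcf7 both long coding forms were called lower, and the 10-exon form held 73.2% to 81.5% of the gene in knockout-labelled femurs, against 79.2% to 80.2% in control femurs. The forms of Wnt11 took different shares in each library, and none was called. Rnf43 also divided differently between libraries, and of its forms only the retained-intron transcript ENSMUST00000134684 was called, with 0.0415 ± 0.0111 FPKM in knockout-labelled femurs and 0.253 ± 0.081 FPKM in control femurs (SD, n = 3 each; log2 fold change -2.12, edgeR adjusted p = 0.0178).

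Pathway genes outside the 39 were taken from a list of 81 further pathway genes, chosen with earlier results of these data known. Of that list, 77 genes were in the table and 69 were tested. Of these, 36 (52.2%) were called lower and 17 (24.6%) higher, against 28.8% and 28.7% of all tested genes. The median of their log2 fold changes was -0.20, taking Wnt3 at its lower bound of change and leaving out Wnt2, which was at 0 in all control libraries. Wnt3a, Wnt8a, Dkk4 and Sp5 were not analysed here. All 7 tested genes on the list of target genes were called lower, among them Ccn5, a matricellular protein, with 3.96, 4.32 and 3.91 FPKM in knockout-labelled femurs, against 75.3, 73.6 and 70.9 FPKM in control femurs (log2 fold change -3.75, edgeR adjusted p = 1.29e-14). Tnfrsf19, a receptor of the TNF receptor family, averaged 7.89 ± 0.16 FPKM in knockout-labelled femurs and 42.3 ± 1.1 FPKM in control femurs, and Ccn4 averaged 25.7 ± 0.7 FPKM in knockout-labelled femurs and 50.2 ± 0.7 FPKM in control femurs (SD, n = 3 each). Osteoblasts express several genes of this list, and the 11 osteoblast markers fell with a median log2 fold change of -1.79; their part was not tested.

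Porcn, which attaches the lipid to Wnt proteins, averaged 2.63 ± 0.20 FPKM in knockout-labelled femurs and 8.94 ± 0.30 FPKM in control femurs, and Wls, which carries them to the surface, averaged 6.10 ± 0.13 FPKM in knockout-labelled femurs and 13.1 ± 0.1 FPKM in control femurs (SD, n = 3 each). Ror2, a receptor of Wnt5a, averaged 0.477 ± 0.003 FPKM in knockout-labelled femurs and 6.35 ± 0.16 FPKM in control femurs, with a log2 fold change of -3.31 (edgeR adjusted p = 9.02e-12). Ptk7, a co-receptor of planar polarity, had a log2 fold change of -1.62 (edgeR adjusted p = 5.02e-11). In the other direction, Fzd9 averaged 16.4 ± 0.4 FPKM in knockout-labelled femurs and 6.92 ± 0.61 FPKM in control femurs (log2 fold change 1.67, edgeR adjusted p = 7.75e-10; SD, n = 3 each). Skeletal muscle markers were higher in the knockout-labelled femurs, as given above, and their part in the value of Fzd9 was not tested.

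Inhibitors outside the list included Sost, the osteocyte inhibitor of Lrp5 and Lrp6, with 553, 563 and 557 FPKM in knockout-labelled femurs, against 391, 382 and 388 FPKM in control femurs (log2 fold change 0.95, SE 0.011, edgeR adjusted p = 1.31e-13). Sost and Dkk1 are themselves on the list of osteocyte markers. The 8 other markers of that list summed to 463 to 470 FPKM in knockout-labelled femurs, against 770 to 780 FPKM in control femurs, with 1 called higher and 6 lower; their part in the values of Sost and Dkk1 was not tested. Sost over Wif1 was 16.4 ± 0.2 in knockout-labelled femurs and 3.70 ± 0.08 in control femurs (SD, n = 3 each). Wnt3 was at 0 counts in all 3 knockout-labelled libraries, and at least 4.61-fold lower there than in control femurs when the floor of 3 read pairs per library is taken. Tle5, a corepressor relative, had a log2 fold change of 1.24 (edgeR adjusted p = 1.88e-13), and Tle2 and Tle3, corepressors that bind TCF proteins, had -0.94 (edgeR adjusted p = 2.40e-08) and -0.50 (edgeR adjusted p = 4.64e-07). Dvl1, which transmits the signal in the cytoplasm, had a log2 fold change of 0.78 after TMM scaling and 0.0048 on TPM, where it missed the threshold. Gsk3a, a kinase of the destruction complex, had 0.60 after TMM scaling and -0.18 on TPM, so its direction depends on the scale. Tnks2, a regulator of axin turnover, likewise had 0.42 after TMM scaling and -0.35 on TPM. Of the 14 cytoplasmic genes tested, 6 (42.9%) were called higher and 4 (28.6%) lower after TMM scaling, against 28.7% and 28.8% of all tested genes.

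The other ligands and the planar polarity genes also went in both directions. Of 5 further ligands tested, 2 were called higher and 2 lower, against 28.7% and 28.8% of all tested genes. In each direction 1 of these calls rests on a gene at 0 counts in 1 group. Wnt2, called higher, had 12, 12 and 15 counts in knockout-labelled femurs, against 0 counts in all control libraries. Wnt3, called lower, was at 0 counts in all knockout-labelled libraries, as given above. Wnt9a, a ligand of joints, averaged 3.16 ± 0.13 FPKM in knockout-labelled femurs and 2.13 ± 0.08 FPKM in control femurs (log2 fold change 1.00, edgeR adjusted p = 2.07e-06), and Wnt2b averaged 0.310 ± 0.041 FPKM in knockout-labelled femurs and 1.30 ± 0.24 FPKM in control femurs (SD, n = 3 each; log2 fold change -1.62, edgeR adjusted p = 1.34e-05). Of 9 planar polarity genes, 6 (66.7%) were called lower and 1 (11.1%) higher, against 28.8% and 28.7% of all tested genes. Prickle1 and Daam2, which act downstream of Frizzled receptors in cell polarity, had log2 fold changes of -0.75 and -0.71 (edgeR adjusted p = 2.31e-06 and 3.99e-08). The gene called higher was Celsr2, a cadherin of the same system, with a log2 fold change of 1.44 (edgeR adjusted p = 3.94e-06). Among glypicans, cell-surface proteoglycans that bind Wnt ligands, Gpc3 averaged 3.87 ± 0.63 FPKM in knockout-labelled femurs and 1.89 ± 0.36 FPKM in control femurs, and Gpc6 averaged 0.455 ± 0.112 FPKM in knockout-labelled femurs and 1.67 ± 0.31 FPKM in control femurs (SD, n = 3 each). Gpc3 was called higher (edgeR adjusted p = 7.48e-06) and Gpc6 lower (edgeR adjusted p = 3.76e-05).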

How the data were processed

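Per the labels' protocols, poly(A)-selected RNA of 6 femurs was made into stranded libraries and read as paired ends. Tools named in the submitters' processing notes, with no versions or roles, are fastp, HISAT2, StringTie and RSEM, and the build is GRCm39; no source used here gives the annotation release or strand setting. The authors deposited FPKM and whole-number estimated counts per gene and transcript. Low counts pile up at multiples of 4 (43.7% to 49.3% of counts from 1 to 12 in long genes of 1 exon and 1 transcript), so about 4 counts stand for 1 read pair. Gene counts were rounded and tested with edgeR 4.0.16 in R 4.3.3 (filterByExpr, TMM, quasi-likelihood F test, Benjamini-Hochberg over 20388 genes, threshold 0.05); the SE comes from the spread of log2 CPM with a prior count of 2. Alternatives were DESeq2 1.42.0, limma 3.58.1 on log2 of FPKM or TPM with pseudocounts of 1 or 0.1, other filters and scalings, a replicate block and leaving out each library. Groups follow the treatment label. All pairs of libraries within a group differed by 1.53 to 1.59 times the sampling noise, so none was treated as a library deposited more than once; this does not show whether they come from separate mice, and n = 3 counts libraries. The edgeR step was tested on simulated counts. The members, gene lists and marker lists were chosen with earlier results of these data known. All 39 members are named, with other pathway genes limited to Sost, Wls, Porcn and up to 3 per list by smallest adjusted p, as the naming rule set. Coordinates are those of the deposited tables; promoters are RefSeq's. PCR copies are not independent molecules, so floors cover counting error only.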

Additional observations from a re-analysis of the deposited data

How the results depend on the processing

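The 8 Wnt genes called higher became 5 with library totals, 3 with limma on log2(FPKM + 1), 3 with log2(FPKM + 0.1) and 2 on TPM. The limma alternatives change the test and the filter as well as the scale: they tested 31 members and left out Wnt11 and Rspo2, both called higher in the main test. Lower calls, 23 in the main test, were 26 with library totals, 22 on both FPKM scales, 28 on TPM, 21 after quantile normalization and 24 with DESeq2. Over all genes, 5860 higher and 5872 lower became 3379 and 10339 with library totals and 2822 and 8780 on log2(FPKM + 1). With log2(FPKM + 0.1) they were 2819 and 8754, and on TPM 1832 and 10738. Other pathway genes, 17 higher and 36 lower, became 11 and 49, 8 and 44, 8 and 44, and 5 and 50 under the same alternatives. Leaving out 1 library gave 8 to 9 Wnt genes higher and 22 to 24 lower, 5536 to 5598 and 5359 to 5734 over all genes, 16 to 18 and 34 to 35 in the pathway, and 20 to 23 member transcripts called, against 27. Replicate numbers did not pair the samples (correlations of deviations -0.044, 0.026 and 0.0035); the replicate block gave 8 and 23 Wnt genes, 5673 and 5671 over all genes and 18 member transcripts. Among uncalled members, Lef1, Nkd1, Znrf3, Wnt1, Lrp6, Rspo3 and Axin2 each passed the threshold under at least 1 alternative. On TPM, Wnt1 (-0.60), Lrp6 (-0.63), Rspo3 (-0.57) and Axin2 (-0.43) were called lower. Lrp6 was called higher without control replicate 3 (0.14). Log2 fold changes changed sign with library totals for Lrp6 (-0.33), Rspo3 (-0.28), Axin2 (-0.23) and Tnks2 (-0.0023). On log2(FPKM + 1) the values were Fzd4 -0.00096, Lrp6 -0.28, Rspo3 -0.21, Axin2 -0.12 and Tnks2 -0.0068, and on log2(FPKM + 0.1) Fzd4 -0.00095, Lrp6 -0.33, Rspo3 -0.30, Axin2 -0.21 and Tnks2 -0.0073. On TPM they were Fzd4 -0.33, Lrp6 -0.63, Dkk1 -0.32, Kremen1 -0.32, Rspo3 -0.57, Axin2 -0.43, Gsk3a -0.18 and Tnks2 -0.35. Wnt1 turned to 0.028 after quantile normalization and ranged from -0.26 to 0.11 when 1 library was left out, and Rspo3 ranged from -0.066 to 0.26, falling below 0 without knockout-labelled replicate 1. The cause of these changes was not tested beyond the shift of the median gene that scaling gives (-0.42 with library totals, -0.73 on TPM). Wnt7b, Wnt10a and other genes under 1 FPKM rest on few read pairs.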
